A study of Mus musculus with 72 samples.

Results

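The clustered replication-dependent histone genes supply the core and linker histones that package newly made DNA. They were taken as the RNA rows whose symbol begins with Hist1h, Hist2h, Hist3h or Hist4h, which gave 69 of the 25124 genes listed. In the chromatin accessibility data they were taken as the peaks assigned to such a gene within 50 kb of its start, which gave 76 of 51984 peaks. The cells were RAW264.7, a macrophage-like mouse line of BALB/c origin, in which a lentivirus had introduced a hairpin RNA directed at the corepressor NCOR (shNCOR), the corepressor SMRT (shSMRT) or GFP (shGFP, the control), and kept without further treatment. Each group had 3 libraries of RNA sequencing and 3 libraries of ATAC-seq, a transposase assay of open chromatin, out of 72 samples in the series. All groups share the cell line, the lentiviral infection and a hairpin, and each corepressor is represented by 1 hairpin name. Whether libraries of 1 group were grown apart is not given in the labels. Each p-value below is therefore set against a spread between libraries that may be purely technical. The ATAC protocol in the labels speaks of wild-type cells in triplicate wells, while sample titles give a hairpin, and grouping went by title.

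Histone genes of this kind are switched on together as cells enter S phase, under NPAT and HINFP, at a nuclear structure called the histone locus body. Most have no introns, and their mRNA normally ends in a stem-loop bound by SLBP in place of a poly(A) tail, so that it is made and destroyed with DNA synthesis. Some of the same genes are also known to give polyadenylated transcripts, in particular in cells that leave the cell cycle. The labels describe the RNA as poly(A) RNA, so the values below are those of transcripts recovered in such a preparation. In bulk samples, fewer cells in S phase and less RNA per cell cannot be told apart.

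Sequencing depth was 39.1 to 49.1 M reads per RNA library and 6.06 to 10.84 M reads per ATAC library. Ncor1, which encodes NCOR, was at 3.61, 4.20 and 4.30 RPKM (reads divided by exon length in kb and by the library's M reads) in shNCOR and at 18.4, 20.2 and 18.7 RPKM in shGFP. All 8 macrophage markers reached 1 RPKM in every library, with a summed level of 8200 to 8485 RPKM in shNCOR, 9997 to 10538 in shSMRT and 7062 to 7215 in shGFP. The 5 lymphocyte, 5 fibroblast and epithelial, and 6 neutrophil and mast cell markers all stayed below 1 RPKM in every library.

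Near-identical copies limit what can be said of single histone genes. At 4 places the RNA table gave a pair of symbols the same position and almost the same reads, so that the 69 rows hold 65 separate measurements. The pair Hist2h2aa1 and Hist2h2aa2, both H2A genes, held 1047 and 1061 reads over the 9 libraries, and the H3 pair Hist2h3c1 and Hist2h3c2 held 72 and 71. Hist1h2bq and Hist1h2br held 60 reads each, and Hist1h2ao and Hist1h2ap held 19 and 17. Each pair is counted once below and its reads cannot be split between the copies. Reads were counted on both strands, so a transcript antisense to a histone gene would be counted with it.

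Promoter windows of 300 bases, from 250 before to 50 after the annotated start, were found in RefSeq (GRCm38.p6, the assembly called mm10) for 62 of the 69 rows. The rows without one are Hist1h2al, Hist1h2bc, Hist1h3a, Hist1h3f, Hist2h2be, Hist2h4 and Hist3h2bb-ps. The start of the window lay within 10 bases of that of the counted transcript for 56 rows, and the 62 windows gave 61 distinct sequences. The octamer ATTTGCAT, which OCT1 binds in H2B promoters, was found on either strand in 14 of the 61 windows (23%), against 570 of all 32851 windows of the table (1.74%). It stood in 7 of 15 H2B windows and 7 of 18 H2A windows, and in 0 of 6 H1, 0 of 10 H3 and 0 of 12 H4 windows. Many H2A and H2B genes sit head to head and share the bases between them. The CCAAT box, letters CCAAT or ATTGG, was found in 52 of 61 windows (85.2%) against 37.4% of all windows, with H4 the exception at 3 of 12. The TATA box, letters TATAAA or TTTATA, was found in 35 of 61 (57.4%) against 13.6% of all windows. A match is a description of the letters and no evidence of binding.

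The 6 windows below belong to the genes that the RNA results turn on: the H2A gene with the largest change, the bidirectional window of the H2A and H2B pair Hist1h2ac and Hist1h2bc, an H2B gene that changed in both knockdowns, an H4 gene, the most abundant member, which encodes linker histone H1, and an H2A gene that was not called. Each is written from 5′ to 3′ on the strand of the named gene. Capitals mark the octamer, CCAAT and TATA letters of either strand, and no match overlaps another in these windows. Hist2h2aa1 lies at chr3:96245247-96245546 (plus strand), Hist1h2ac at chr13:23683910-23684209 (minus), Hist1h2be at chr13:23585921-23586220 (minus), Hist1h4k at chr13:21750504-21750803 (minus), Hist1h1c at chr13:23738557-23738856 (plus) and Hist1h2ae at chr13:23571171-23571470 (minus).
Hist2h2aa1: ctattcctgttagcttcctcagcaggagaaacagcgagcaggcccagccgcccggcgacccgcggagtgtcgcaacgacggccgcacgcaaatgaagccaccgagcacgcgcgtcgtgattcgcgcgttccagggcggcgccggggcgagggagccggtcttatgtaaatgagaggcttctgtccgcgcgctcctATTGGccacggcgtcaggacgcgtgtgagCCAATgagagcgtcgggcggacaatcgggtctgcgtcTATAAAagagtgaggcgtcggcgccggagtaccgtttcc
Hist1h2ac: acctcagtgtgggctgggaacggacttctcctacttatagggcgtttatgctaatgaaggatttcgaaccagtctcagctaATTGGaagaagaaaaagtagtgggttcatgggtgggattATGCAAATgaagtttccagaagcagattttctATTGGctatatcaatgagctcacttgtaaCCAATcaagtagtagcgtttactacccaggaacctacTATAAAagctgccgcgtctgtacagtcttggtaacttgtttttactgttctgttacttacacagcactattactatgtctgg
Hist1h2be: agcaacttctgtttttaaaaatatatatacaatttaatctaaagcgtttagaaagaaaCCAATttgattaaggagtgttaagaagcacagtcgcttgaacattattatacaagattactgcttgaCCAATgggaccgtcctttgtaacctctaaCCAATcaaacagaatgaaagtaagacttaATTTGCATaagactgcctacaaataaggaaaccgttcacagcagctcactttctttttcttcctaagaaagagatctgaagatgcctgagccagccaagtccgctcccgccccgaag
Hist1h4k: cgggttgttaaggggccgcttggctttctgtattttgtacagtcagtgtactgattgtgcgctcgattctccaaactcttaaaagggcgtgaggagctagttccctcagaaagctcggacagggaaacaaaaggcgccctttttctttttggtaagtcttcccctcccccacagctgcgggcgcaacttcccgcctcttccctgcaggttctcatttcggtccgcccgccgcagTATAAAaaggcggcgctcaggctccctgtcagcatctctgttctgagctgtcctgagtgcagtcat
Hist1h1c: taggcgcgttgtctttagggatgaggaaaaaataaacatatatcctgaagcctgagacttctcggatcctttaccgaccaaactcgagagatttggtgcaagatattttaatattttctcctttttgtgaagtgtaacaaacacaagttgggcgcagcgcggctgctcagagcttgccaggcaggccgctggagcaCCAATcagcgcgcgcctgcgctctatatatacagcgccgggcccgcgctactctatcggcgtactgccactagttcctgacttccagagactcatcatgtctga
Hist1h2ae: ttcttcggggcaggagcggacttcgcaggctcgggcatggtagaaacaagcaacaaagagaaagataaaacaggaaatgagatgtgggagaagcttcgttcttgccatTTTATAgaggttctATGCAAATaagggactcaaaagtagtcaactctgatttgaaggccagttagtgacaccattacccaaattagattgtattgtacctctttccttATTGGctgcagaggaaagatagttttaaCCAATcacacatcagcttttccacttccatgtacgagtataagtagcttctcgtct
Hist2h2aa1, whose RNA changed most, had no octamer, and its TATA letters began 11 bases after the annotated start. Its reads cannot be split from those of Hist2h2aa2, whose own, different window had neither octamer nor TATA letters. The shared window of Hist1h2ac held the octamer 130 bases before the start of that gene. Hist1h4k had TATA letters 16 bases before its start and no CCAAT box. Hist1h2ae, which was not called, held all 3 motifs, but its TATA letters, as TTTATA, began 142 bases before its start. The H2B gene Hist1h2bg starts 180 bases away, head to head on the other strand.

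Most members were hardly detected. Of the 65 separate rows, 12 reached 1 RPKM in at least 3 of the 9 libraries and entered the test. They held 79.8% of the summed RPKM of all members and 82.1% of their reads. The other 53 had mean levels up to 0.738 RPKM and a median of 49 reads over all 9 libraries, and 3 of them, Hist1h1t, Hist1h2aa and Hist1h2ba, were at 0 in all. Of these, the 5 with the highest means were the H3 genes Hist1h3i and Hist1h3c, the H4 gene Hist4h4, the H2B gene Hist1h2bh and the H2A gene Hist2h2ac. On the scale of RPKM, which allows for length, Hist1h1c (H1) was highest with a mean of 19.1 over the 9 libraries. Among the 12, Hist1h4k, Hist1h4h and Hist1h2af would not have passed on the shNCOR and shGFP libraries alone, so counts over the 12 are descriptions and not support for a direction.

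Summed over all 65 separate rows, tested or not, histone RNA came to 69.6, 61.4 and 63.3 RPKM in shNCOR, 93.9, 101 and 93.5 RPKM in shSMRT and 54.8, 63.7 and 55.1 RPKM in shGFP. The shSMRT libraries all stood above both other groups, while shNCOR overlapped shGFP. By class, the H2A sum was 25.2, 26.0 and 23.5 RPKM in shSMRT against 14.7, 15.0 and 12.1 in shGFP. The H2B sum was 22.8, 23.3 and 21.4 RPKM in shSMRT against 9.68, 8.76 and 9.28 in shGFP. For both classes the shSMRT libraries lay clear of the others.

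The H4 sum was 17.4, 22.8 and 20.4 RPKM in shSMRT against 11.7, 15.0 and 11.4 in shGFP, again without overlap. The H3 sum was 6.74, 7.39 and 6.16 RPKM in shSMRT against 2.22, 6.70 and 5.62 in shGFP, and here the groups overlapped. The H1 sum was 23.4, 17.9 and 23.7 RPKM in shNCOR, 21.9, 21.1 and 22.0 in shSMRT and 16.4, 18.2 and 16.8 in shGFP, so that shSMRT lay above shGFP and shNCOR overlapped it. Nearly all of the H1 sum was Hist1h1c. The 53 untested rows together came to 15.9, 15.5 and 16.8 RPKM in shSMRT, against 12.8, 17.0 and 12.9 in shGFP, and these overlapped.

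**Figure D1:**
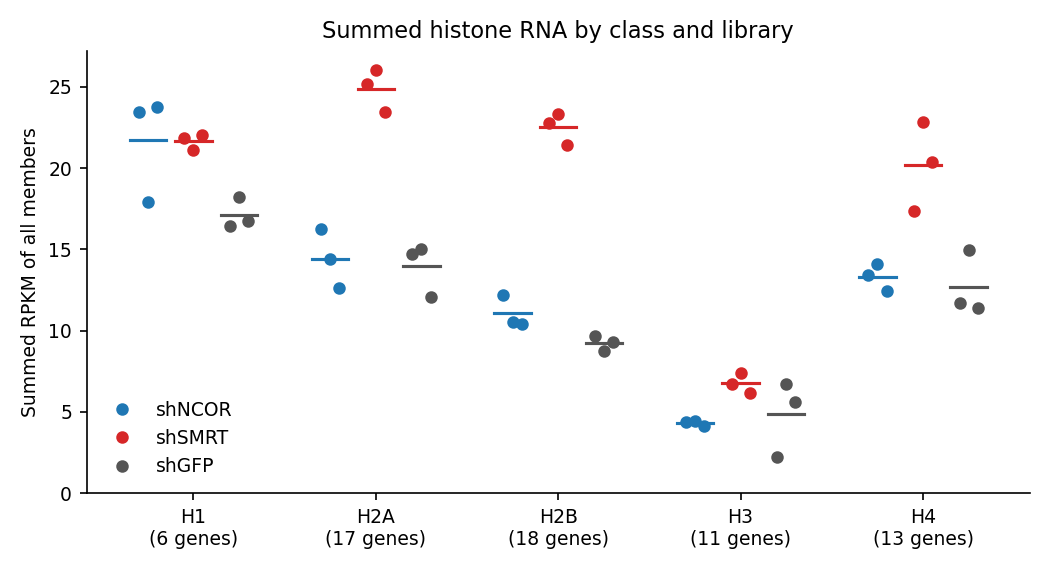
Summed RPKM of all separate histone rows of each class (vertical axis) in shNCOR, shSMRT and shGFP, with 1 point per library and a bar at the mean of 3. The H2A, H2B and H4 sums of shSMRT lie above those of both other groups, while for H1 shNCOR reaches 23.7 RPKM and shSMRT 22.0 RPKM.

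The first comparison asked what the hairpin against SMRT did relative to shGFP. Of the 12 tested histone genes 10 rose and 0 fell, in a table where 24.4% of all 10789 tested genes went up and 31.4% went down. Among the 9 that pass without the shSMRT libraries, 8 rose. In each of the 10 all shSMRT libraries lay above all shGFP libraries, as they did in 27.9% of all tested genes. Tests were made on log2(RPKM + 1) with limma and Benjamini-Hochberg adjustment over all genes, so a fold change understates that of low genes.

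The largest changes were in H2A and H2B genes. Hist2h2aa1, at chr3:96245497-96246052 in the Hist2 cluster, encodes an H2A and stood at 11.1, 10.6 and 10.5 RPKM in shSMRT against 2.21, 1.02 and 1.29 RPKM in shGFP. All shSMRT libraries were above all shGFP libraries, and the log2 fold change was 2.25 ± 0.14 (SE, limma adjusted p = 2.46e-07). Hist1h2bc, an H2B gene whose transcript is spread over chr13:23684199-23692480 and counted over 724 bases of exon, stood at 11.5, 12.9 and 12.5 RPKM in shSMRT against 3.48, 3.95 and 4.19 in shGFP. It rose by a log2 fold change of 1.45 ± 0.09 (SE, limma adjusted p = 2.05e-07), again with no overlap. Hist1h2ac, the H2A gene that starts 240 bases away on the other strand and shares the window printed above, was at 0.093, 0 and 0.051 RPKM in shSMRT and 0, 0.053 and 0.053 RPKM in shGFP. At the depth of these libraries only 1 member of this head-to-head pair gave appreciable signal.

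Hist1h2be, a further H2B gene, was at 2.46, 2.94 and 1.80 RPKM in shSMRT against 0.836, 0.289 and 0.749 in shGFP (log2 fold change 1.07 ± 0.16, SE). Hist2h2be, the H2B gene of the Hist2 cluster with a long transcript of 2664 counted bases, was at 3.07, 3.66 and 2.73 RPKM in shSMRT against 1.76, 1.55 and 1.59 in shGFP (0.65 ± 0.09, SE). Both rose without overlap between the groups (limma adjusted p = 0.000238 and 0.000149). Hist2h2ac, the head-to-head neighbour of Hist2h2be, was among the genes too low to test, at 0.486, 0.254 and 0.587 RPKM in shSMRT and 0.348, 0.659 and 1.04 in shGFP.

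The 3 tested H4 genes were all called higher, but Hist1h4k and Hist1h4h passed the filter only with their shSMRT libraries. Hist1h4i, the most abundant of them, stood at 12.0, 14.9 and 12.2 RPKM in shSMRT against 8.03, 7.98 and 6.75 in shGFP (log2 fold change 0.70 ± 0.12, SE, limma adjusted p = 0.000557). Hist1h4k was at 1.56, 2.15 and 2.32 RPKM in shSMRT against 0.626, 0.881 and 0.690 in shGFP (0.79 ± 0.11, limma adjusted p = 7.91e-05), from 11 to 38 reads per library. Hist1h4h was at 1.57, 1.64 and 1.90 RPKM in shSMRT against 0.695, 1.36 and 0.472 in shGFP (0.58 ± 0.16, limma adjusted p = 0.00865). In none of the 3 did the groups overlap.

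The remaining rises were smaller or less steady. Hist3h2a, the H2A gene of the small cluster on chromosome 11, was at 9.49, 10.3 and 6.63 RPKM in shSMRT against 6.04, 6.17 and 5.60 in shGFP (log2 fold change 0.48 ± 0.12, SE, limma adjusted p = 0.00598). Hist1h1c was at 20.6, 20.3 and 21.1 RPKM in shSMRT against 15.0, 16.9 and 16.1 in shGFP (0.35 ± 0.08, limma adjusted p = 0.00453). Hist1h3g, the only H3 gene tested, was at 2.59, 3.23 and 2.39 RPKM in shSMRT against 0.331, 2.09 and 1.72 in shGFP (0.73 ± 0.25, limma adjusted p = 0.0271). Its first shGFP library, with 7 reads, stood far below the other two, and without it the log2 fold change was 0.36 (limma adjusted p = 0.0295). The call was lost without shSMRT replicate 1 (adjusted p = 0.0532) or replicate 2 (0.0875).

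The H2A genes Hist1h2ae and Hist1h2af were not called, the first of them by a narrow margin. Hist1h2ae was at 1.67, 2.38 and 1.48 RPKM in shSMRT against 2.29, 2.58 and 2.39 in shGFP (log2 fold change -0.28 ± 0.11, SE, limma adjusted p = 0.0502). It was called lower in shSMRT with the replicate number as a block (limma adjusted p = 0.0221), with quantile normalization (0.00881), without shNCOR replicate 1 (0.0485) and without shSMRT replicate 2 (0.0038). Hist1h2af was at 0.451, 0.282 and 1.09 RPKM in shSMRT against 0.692, 1.89 and 0.661 in shGFP, with overlapping groups (-0.35 ± 0.25, adjusted p = 0.242). The log2 fold changes of the 4 tested H2A genes thus ran from -0.35 to 2.25.

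**Figure D2:**
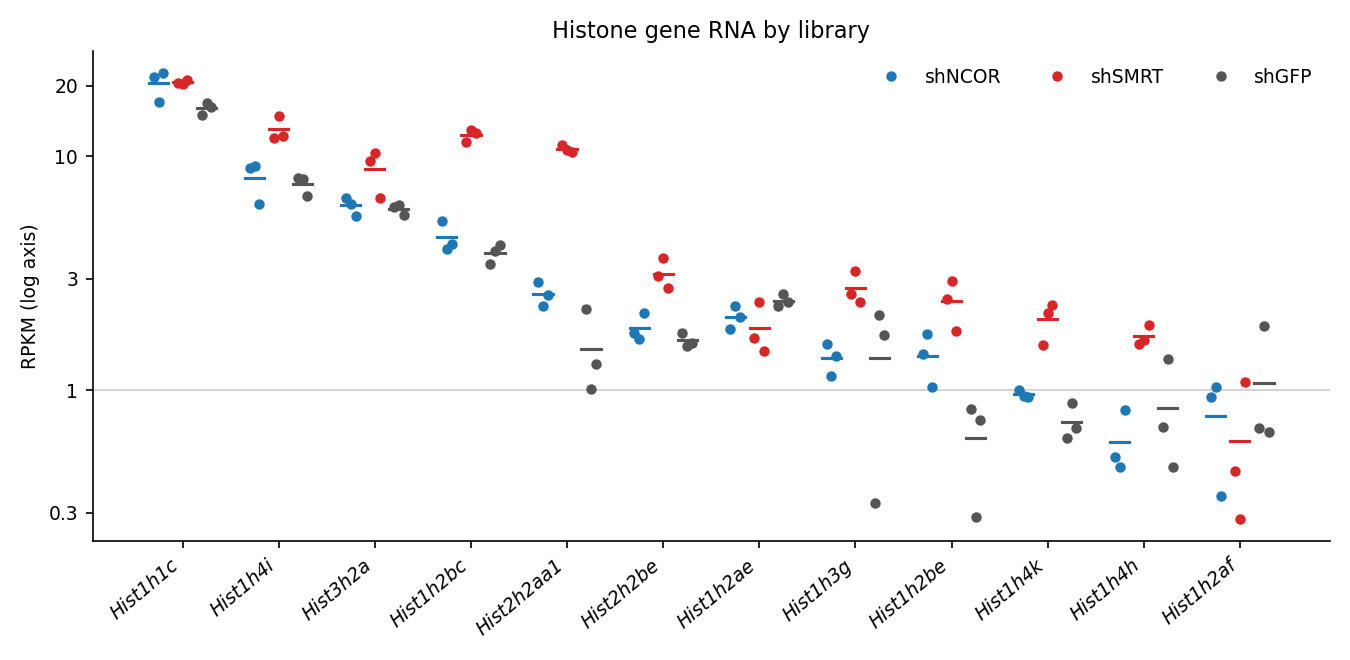
RPKM on a log axis for the 12 tested histone genes, with 1 point per library for shNCOR, shSMRT and shGFP, a bar at each mean and a grey line at 1 RPKM. Hist2h2aa1 and Hist1h2bc stand above 10 RPKM in all 3 shSMRT libraries, and Hist1h2ae and Hist1h2af show no rise.

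Lowering the filter to 0.2 RPKM brought 51 separate histone genes into the test. Against shGFP, 17 were then higher in shSMRT and 3 lower, where 23.8% of all tested genes were higher and 28.1% lower. These counts are a description, because some genes passed this filter only through the group in which they were high. Among the 38 that pass both without the shSMRT and without the shGFP libraries, 14 were higher and 2 lower. The 3 lower genes, named after their values were seen, were the H3 gene Hist1h3a (mean 0.125 RPKM in shSMRT and 0.536 in shGFP), the H2B gene Hist1h2bm (0 and 0.341) and the H2A gene Hist1h2ab (0.125 and 0.426). Hist1h2al, annotated as a pseudogene like Hist3h2bb-ps, lies away from the main cluster and was likewise named after its values were seen. Its mean, 0.988 RPKM in shSMRT and 0.130 in shGFP, is part of the H2A sum and of the untested sum above. Hist1h2al passed the lower filter only through its shSMRT libraries, as Hist1h2bm did only with its shGFP libraries.

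The second comparison asked the same of the hairpin against NCOR. It uses the same shGFP libraries, so the 2 comparisons are not independent. Of the 12 tested histone genes 3 rose in shNCOR and 0 fell, in a table where 17.6% of all tested genes were higher and 20.0% lower. Hist1h1c was at 21.8, 17.1 and 22.6 RPKM in shNCOR against 15.0, 16.9 and 16.1 in shGFP, with the second shNCOR library just above the highest shGFP library (log2 fold change 0.33 ± 0.08, SE, limma adjusted p = 0.0101). Hist2h2aa1 was at 2.91, 2.29 and 2.57 RPKM in shNCOR against 2.21, 1.02 and 1.29 in shGFP (0.54 ± 0.14, limma adjusted p = 0.0102). Hist1h2be was at 1.43, 1.74 and 1.03 RPKM in shNCOR against 0.836, 0.289 and 0.749 in shGFP (0.57 ± 0.16, limma adjusted p = 0.019).

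In each of these 3 genes shNCOR lay above shGFP without overlap. It did so too in Hist1h4k, which was not called, and lay below without overlap in Hist1h2ae. Thus 4 of the 12 were higher and 1 lower without overlap, where 23.1% of all tested genes were higher and 24.9% lower. The Hist1h2be call rested on few reads. It was lost without shGFP replicate 2 (limma adjusted p = 0.0684) or shNCOR replicate 2 (0.0736). The other 9 genes had log2 fold changes between -0.20 and 0.18 and were not called. Hist1h2bc, which rose in shSMRT, was at 5.26, 4.00 and 4.23 RPKM in shNCOR, with overlap with shGFP (0.17 ± 0.09, limma adjusted p = 0.153).

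Set against each other directly, shSMRT exceeded shNCOR in 9 of the 12 histone genes and fell below it in 0, where 22.8% of all tested genes were higher and 29.0% lower. Among the 9 tested genes that pass without the shSMRT libraries, 7 were higher in shSMRT than in shNCOR and 0 lower. Hist2h2aa1 differed by a log2 fold change of 1.71 ± 0.14 (SE, limma adjusted p = 2.08e-06) and Hist1h2bc by 1.28 ± 0.09 (5.22e-07). Hist1h4h, Hist1h4i and Hist1h4k differed by 0.76 ± 0.16, 0.63 ± 0.12 and 0.61 ± 0.11. Hist2h2be (0.54 ± 0.09) and Hist3h2a (0.44 ± 0.12) were called as well. Hist1h1c did not differ detectably between the knockdowns (0.02 ± 0.08, limma adjusted p = 0.855). The calls of Hist1h2be (0.50 ± 0.16, limma adjusted p = 0.0259) and Hist1h3g (0.65 ± 0.25, 0.0485) were lost when any of several single libraries was left out, among them shSMRT replicate 2 (0.105 and 0.139).

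Most genes that act with the histones in S phase fell in both knockdowns. Of 25 S phase genes (replication licensing, nucleotide synthesis and G1/S cyclins), 2 were higher and 21 lower in shSMRT, where 24.4% of all genes were higher and 31.4% lower. Their median log2 fold change was -0.25, and that of all genes was -0.02. The 2 that rose were the E-type cyclins Ccne1 (0.57 ± 0.04, SE, limma adjusted p = 8.63e-07) and Ccne2 (0.38 ± 0.05), which drive entry into S phase. The largest falls were in thymidylate synthase Tyms (-0.55 ± 0.04) and the helicase subunit Mcm2 (-0.46 ± 0.03). In shNCOR, 2 were higher and 16 lower (median -0.16), where 17.6% of all genes were higher and 20.0% lower, with Ccne2 among those that rose (0.29 ± 0.05) and the ribonucleotide reductase subunit Rrm2 among those that fell (-0.26 ± 0.03).

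Histone chaperones carry new histones to DNA. In shSMRT 1 of 16 was higher and 13 lower, against 24.4% and 31.4% of all genes, and in shNCOR 1 was higher and 10 lower, against 17.6% and 20.0% of all genes. Asf1b, an H3-H4 chaperone of dividing cells, fell by 0.51 in log2 in shSMRT, with 51.8 ± 1.82 RPKM against 74.1 ± 1.11 in shGFP (SD, n = 3 each). Ssrp1, a subunit of the FACT complex, was at 101 ± 1.10 RPKM in shSMRT and 132 ± 1.32 in shGFP. Atrx rose in both knockdowns (0.29 ± 0.06 in shSMRT and 0.28 ± 0.06 in shNCOR), and Daxx, its partner in placing the H3.3 variant, fell in shNCOR (-0.60 ± 0.05, SE, limma adjusted p = 6.11e-06).

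Of 16 tested genes for transcription and 3′ end processing of histone mRNA, 3 were higher and 7 lower in shSMRT (24.4% and 31.4% of all genes), and 2 higher and 6 lower in shNCOR (17.6% and 20.0% of all genes). Both Hinfp and Npat, which act on histone gene promoters, were among those higher in shSMRT. Hinfp, which binds H4 promoters, had a mean of 11.9 ± 1.12 RPKM in shSMRT against 8.47 ± 0.35 in shGFP (SD, n = 3 each; log2 fold change 0.44, limma adjusted p = 0.00348). Npat, the coactivator of the whole family, had 6.67 ± 0.561 RPKM in shSMRT against 5.27 ± 0.0527 in shGFP (0.29, limma adjusted p = 0.00318). Eri1, a nuclease that trims histone mRNA ends, was lower in shSMRT (-0.24, limma adjusted p = 0.000468), as was Slbp, which binds the stem-loop (-0.16, limma adjusted p = 0.00649). Both were lower in shNCOR as well (Eri1 -0.11, limma adjusted p = 0.0488, and Slbp -0.15, 0.0139). In shSMRT against shNCOR, Eri1 was lower (-0.12, limma adjusted p = 0.0227) and Slbp did not differ detectably (-0.009, 0.867).

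Replacement histone genes, which are expressed outside S phase with polyadenylated mRNA, went in both directions. Of 10 tested, 2 were higher and 4 lower in shSMRT, near the 24.4% and 31.4% of all genes. In shNCOR 3 were higher and 4 lower, where 17.6% and 20.0% of all genes were. H1fx, a linker histone variant, was at 5.72, 5.17 and 5.44 RPKM in shSMRT against 2.40, 2.39 and 2.53 in shGFP and rose (log2 fold change 0.91 ± 0.13, SE, limma adjusted p = 0.000123). In shNCOR it was at 0.789, 1.77 and 1.41 RPKM and fell (-0.59 ± 0.13, limma adjusted p = 0.00405). H3f3b, a gene for H3.3, was at 184, 178 and 183 RPKM in shSMRT against 308, 303 and 301 in shGFP (-0.74 ± 0.03). The summed RPKM of the 11 replacement genes was 1716, 1699 and 1715 in shSMRT against 1911, 1834 and 1894 in shGFP, far above the 93.5 to 101 RPKM of the clustered genes in shSMRT. Poly(A) selection acts differently on the 2 kinds of mRNA, so this ratio is not one of total histone RNA.

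Of 13 tested genes linked to leaving the cell cycle, 7 were higher and 3 lower in shSMRT, where 24.4% of all genes were higher and 31.4% lower. In shNCOR 4 were higher and 3 lower, where 17.6% and 20.0% of all genes were. The antiproliferative Btg1 was higher in both (0.92 ± 0.03 in shSMRT and 1.24 ± 0.03 in shNCOR), and Btg2 was among the 2 most raised in shSMRT (0.94 ± 0.09). The CDK inhibitor Cdkn2d fell in both (-0.38 ± 0.06 in shSMRT and -0.58 ± 0.06 in shNCOR), and E2f4, a transcription factor that represses cell cycle genes, fell in shSMRT (-0.25 ± 0.03). Ccng2, a cyclin of arrested cells, fell in shNCOR (-0.68 ± 0.09) and was higher in shSMRT than in shNCOR (1.28 ± 0.09). The CDK inhibitor Cdkn1a was also higher in shSMRT than in shNCOR, at 149 ± 2.76 RPKM against 93.0 ± 2.86 (SD, n = 3 each). The part of the macrophage marker sums, of these cell cycle genes and of the RNA preparation in the histone values was not tested.

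**Figure D3:**
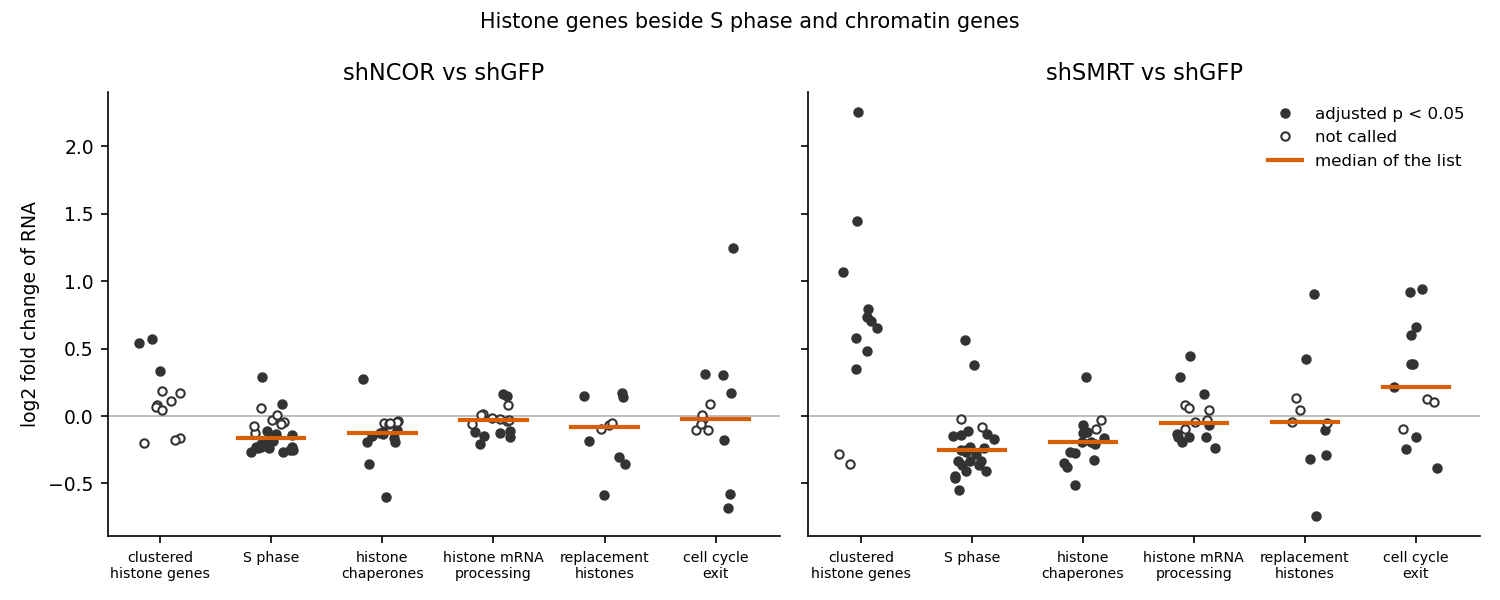
RNA log2 fold changes (vertical axis) of the 12 clustered histone genes beside 5 gene lists, in shNCOR and in shSMRT, each against shGFP. Filled points have a limma adjusted p under 0.05 and orange bars are list medians, with none drawn for the histone genes because passing the filter favoured high shSMRT values. In shSMRT the histone genes reach 2.25 while the S phase median is -0.25.

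The non-member genes whose log2(RPKM + 1) followed Hist1h1c most closely over the 9 libraries were G730013B05Rik (Pearson r = 0.93), Polr1d (0.92), Selenon (0.92), Cyp4v3 (0.91) and Cndp2 (0.91). These are descriptions over libraries that share 3 groups.

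ATAC signal was found at the histone genes in every group. Of the 76 peaks, 61 lay on chromosome 13, 13 on chromosome 3 and 1 each on chromosomes 11 and 6, and 54 lay within 1 kb of the assigned start. Values are reads in a peak, brought to a common library size of 10 M reads. The median histone peak had a mean of 221 in shGFP and was 661 bp wide, against 59.3 and 365 bp over the whole table. In all, 75 peaks entered the test. The other, at chr3:96246102-96247317, covers the RefSeq window of Hist2h3c1. It had values of 2.27 to 4.69 in shSMRT, 3.30 to 6.60 in shNCOR and 4.61 to 11.3 in shGFP. The peak at chr3:96238103-96240569 covers the RefSeq window of the near-identical copy Hist2h3c2, although it is assigned to Hist2h3c1. It had 213 to 284 in shSMRT and 395 to 450 in shGFP, so the low value of the untested peak cannot be read as closed chromatin.

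Whereas the summed histone RNA was higher in shSMRT, accessibility was lower at most histone peaks. These peaks include those of genes too low in RNA to test, whose summed RNA overlapped between shSMRT and shGFP. Of 75 tested peaks, 40 were lower and 0 higher in shSMRT against shGFP, where 10.9% of all 51469 peaks were lower and 6.81% higher. Among all peaks within 1 kb of a start, 21.8% were lower, and among histone peaks so placed 36 of 53. The median log2 fold change was -0.30 over the histone peaks, -0.20 over all peaks near a start and -0.09 over all peaks. Summed over the 76 peaks, the values were 15180, 16302 and 16724 in shSMRT against 20992, 19471 and 19767 in shGFP.

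The share of reads that fell in peaks moved with this result. It was 47.2, 49.3 and 48.9% in shSMRT, 54.1, 54.9 and 54.8% in shNCOR and 53.5, 50.1 and 52.7% in shGFP. Scaling each library to its reads in peaks shifted the median of all peaks to 0.00 in shSMRT against shGFP, and then 19 histone peaks were lower and 1 higher, where 5.29% of all peaks were lower and 8.89% higher, and 8.62% of those near a start were lower. With quantile normalization 17 were lower and 0 higher, where 6.52% of all peaks were lower. Without shGFP replicate 1, 21 were lower. The histone median stayed below 0, at -0.21 and -0.16 under the 2 scalings, against -0.10 and -0.08 over all peaks near a start.

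In shNCOR few histone peaks were called. Against shGFP 3 were higher and 1 lower, where 4.58% of all peaks were higher and 4.00% lower, and the median log2 fold change was 0.08 against 0.05 over all peaks. Scaled to reads in peaks, 1 was higher and 1 lower, where 2.92% of all peaks were higher and 4.91% lower. With quantile normalization the balance turned, with 2 higher and 4 lower and a median of -0.01, where 3.19% of all peaks were higher and 3.92% lower. The peak at the start of Hist2h2ab (chr3:96219569-96220181) was at 257, 312 and 214 in shNCOR against 177, 200 and 198 in shGFP (0.42 ± 0.11, SE, limma adjusted p = 0.00979). The neighbouring peak at Hist2h2be was at 624, 650 and 617 in shNCOR against 566, 511 and 512 in shGFP (0.25 ± 0.08, limma adjusted p = 0.0368). Both stood above shGFP in every library. An intergenic peak 5502 bp beyond the start of Hist1h1a was higher (0.74, limma adjusted p = 0.032), and an intergenic peak 9531 bp before Hist1h1c was lower, with 37.0, 23.1 and 40.6 in shNCOR, 30.1, 45.4 and 19.8 in shSMRT and 62.6, 58.1 and 70.1 in shGFP. Each of these calls against shGFP was lost under some alternative settings: 2 for Hist2h2ab, 8 for Hist2h2be, 6 for the Hist1h1a peak and 4 for the Hist1h1c peak.

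Between the knockdowns, 54 of 75 peaks were lower in shSMRT than in shNCOR and 0 higher, where 17.5% of all peaks were lower and 6.93% higher, and 41.7% of those near a start were lower. All 75 fold changes were below 0, with a median of -0.39 against -0.12 over all peaks and -0.28 near starts. Scaled to reads in peaks, 25 were lower, where 5.06% of all peaks were lower and 9.91% were higher, 66 histone fold changes were below 0, and the median of all peaks moved to 0.04. The largest called decline from both other groups was at chr3:96238103-96240569, apart from a small intergenic peak 14337 bp beyond the start of Hist1h2bq. The values there were 213, 260 and 284 in shSMRT, 404, 457 and 422 in shNCOR and 450, 395 and 425 in shGFP. This peak is assigned to Hist2h3c1 but overlaps the RefSeq windows of Hist2h3c2 and Hist2h2aa2.

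**Figure D4:**
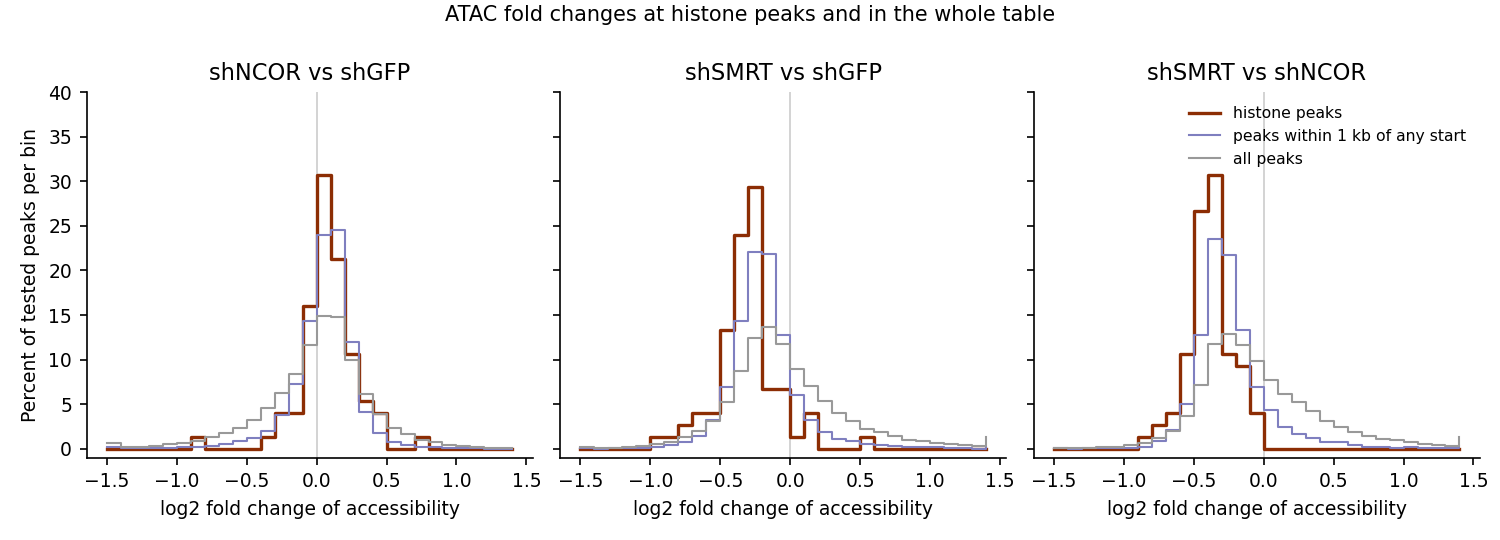
Percent of tested peaks (vertical axis) by log2 fold change of accessibility in bins of 0.1, for histone peaks, for all peaks within 1 kb of a start and for all peaks, in the 3 contrasts. Values beyond the axis are counted in the end bins. In shSMRT the histone peaks centre on -0.30 against shGFP and -0.39 against shNCOR, to the left of both other curves.

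At the start sites of the 12 tested genes RNA and accessibility could be set side by side, in separate sets of libraries. In shSMRT against shGFP all 12 start-site peaks had fold changes below 0 and 8 were called lower, against 21.8% of all peaks within 1 kb of a start, while 10 of the 12 genes had risen. Hist1h4k, whose window is printed above, passed the RNA filter only with its shSMRT libraries. Its RNA rose (0.79) while its peak was at 159, 168 and 190 in shSMRT against 303, 280 and 249 in shGFP (log2 fold change -0.67 ± 0.10, SE, limma adjusted p = 2.99e-06). Hist1h2bc rose by 1.45 in RNA while its peak, which covers the printed window shared with Hist1h2ac, was at 433, 474 and 491 in shSMRT against 612, 612 and 579 in shGFP (-0.37 ± 0.08, limma adjusted p = 0.000682). Hist2h2aa1, with the largest RNA change, had a peak of 87.3, 91.9 and 97.6 in shSMRT against 106, 115 and 105 in shGFP, which was not called (-0.23 ± 0.14, limma adjusted p = 0.265). Its RNA reads cannot be split from those of Hist2h2aa2. The RefSeq window of that copy, chr3:96240325-96240624, overlaps another peak, chr3:96238103-96240569, which also covers the window of Hist2h3c2. That peak was called lower in shSMRT against shGFP (-0.74 ± 0.09, SE, limma adjusted p = 6.24e-08).

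Hist1h2ae, whose RNA was not called, had one of the clearer falls in accessibility, with 355, 383 and 395 in shSMRT against 548, 502 and 506 in shGFP (log2 fold change -0.45 ± 0.08, SE, limma adjusted p = 7.24e-05). That peak also spans the start of its head-to-head neighbour, the H2B gene Hist1h2bg, to which it is assigned. Hist1h2bg, too low for the main test, was at 0.834, 0.512 and 1.18 RPKM in shSMRT against 0.301, 0.222 and 0.166 in shGFP. With values scaled to reads in peaks, all 12 fold changes were still below 0 and 6 were called lower, against 8.62% of peaks near a start. With quantile normalization 11 were below 0 and 4 were called lower, against 7.72%. In shNCOR against shGFP 1 of the 12, at Hist2h2be, was called higher, against 3.06% of peaks near a start, and none under either of these scalings. In shSMRT against shNCOR all 12 were called lower, where 41.7% of peaks near a start were. Scaled to reads in peaks 6 were called lower, against 10.9%, and with quantile normalization 2, against 5.49%.

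**Figure D5:**
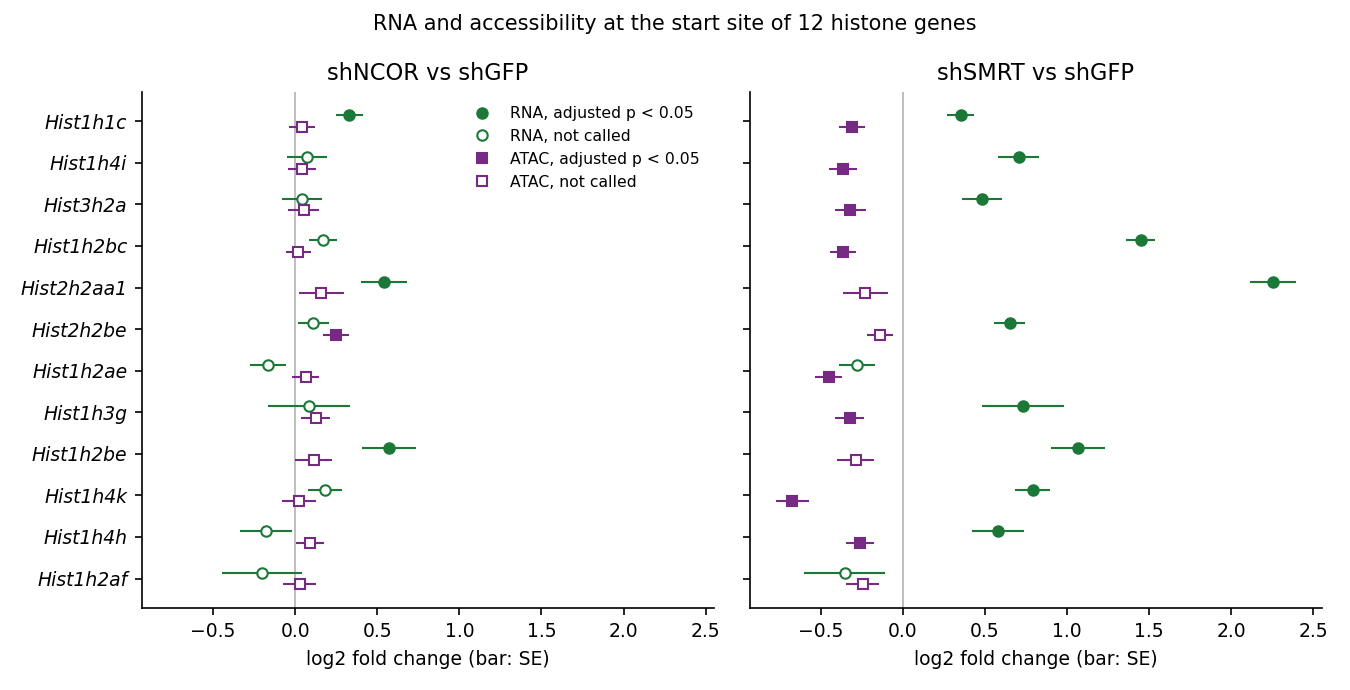
Log2 fold changes of RNA (green circles) and of the ATAC peak at the start site (purple squares) for the 12 tested histone genes, in shNCOR and in shSMRT, each against shGFP. Bars are standard errors and filled symbols have a limma adjusted p under 0.05. In shSMRT the 12 squares lie left of 0 and 10 filled circles lie right of it.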

How the data were processed

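RNA-seq and ATAC-seq were read from 3 libraries each of shNCOR, shSMRT and shGFP, grouped by title. The 54 ChIP-seq and CUT&Tag samples of the series are not analysed here. The RNA values deposited by the authors are RPKM. Per the file headers, HOMER counted both strands over the exons of mm10 RefSeq transcripts, 1 per gene. The ATAC values deposited by the authors are reads in each peak of a merged list, normalized to libraries of 10 M reads and annotated by HOMER on mm10, per the file headers. Commas served as decimal marks there, and 1 peak with an unreadable cell was left out. Per the submitters' processing notes, HISAT2, Bowtie2, MACS2, DESeq2 and HOMER were used with mm10 and mm9, and neither roles nor versions are given in the sources used here. Nor is a shift of reads for the transposase.

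All values tested (100%) were whole multiples of 1 read, within 0.1 read, which gave the depths. Libraries of 1 group differed by more than sampling noise (chi-square per feature 1.64 to 9.65). The fit for each assay took all 9 libraries in limma (3.58.1, under R 4.3.3), with the variance trended on the mean. It used log2(RPKM + 1) for the 10789 genes reaching 1 RPKM in 3 or more libraries, and log2(value + 5) for the 51469 peaks reaching 10 in 3 or more. Calls had a Benjamini-Hochberg adjusted p under 0.05. In simulated data for shSMRT against shGFP, changes were planted only in features with shGFP reads at or above the median of those detected. The spread between libraries was fixed. In RNA, changes of 1.5, 2 and 3 fold were recovered in 83.6, 100 and 100% of cases, with 10586 genes tested. In ATAC the shares were 47.8, 100 and 100%, with 51009 peaks tested. Recovery for histone genes with few reads was not tested. Summaries and figures used Python 3.11.15 and pandas 2.3.3.

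Members and lists were chosen with earlier results of these data known. Named were every tested histone gene, the 5 highest untested ones, up to 4 called genes per list and contrast (the 2 largest and 2 smallest fold changes), the peak at each tested gene's start, up to 3 raised and 3 lowered called peaks per contrast, and the 5 genes most like the most abundant member. Head-to-head neighbours and Slbp were named after their values were seen. SMRT's own transcript is not reported here.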

Additional observations from a re-analysis of the deposited data

How the results depend on the processing

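In RNA, the counts of called histone rows (with copies listed apart) were 4 in shNCOR against shGFP, 11 in shSMRT against shGFP and 10 in shSMRT against shNCOR. With no filter shSMRT against shGFP gave 18. With a filter of 0.2 RPKM it gave 22, and shSMRT against shNCOR 16. Without single libraries they were 3 to 4, 10 to 12 and 8 to 10. In ATAC the counts were 4, 40 and 54. Scaled to reads in peaks they were 2, 20 and 25, with quantile normalization 6 (2 higher and 4 lower), 17 and 15, and with limma voom on reads recovered from the values, chosen after seeing the data, 27 for shSMRT against shNCOR. Within 1 kb shNCOR against shGFP gave 2. Without single libraries they were 0 to 6, 21 to 43 and 44 to 54. The same-numbered libraries did not vary together (correlations of -0.06 to 0.10 in RNA and -0.04 to 0.02 in ATAC), so the replicate block was an alternative only, with 4, 12 and 9 calls in RNA and 3, 37 and 52 in ATAC. Supt16, a chaperone gene, reversed with quantile normalization (0.043 in shSMRT against shGFP, in place of -0.064). Of the other values recomputed for single genes and peaks, 2464 kept direction and side of the threshold, 156 lost their call, 8 gained one and 47 changed sign with no call under either setting. The cause was not tested. The edgeR alternatives planned were not run, because the values were not accepted as counts. Low values limit single genes: the 53 histone genes under the filter of 1 RPKM had a median of 49 reads over all 9 libraries.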
